A study of Mus musculus with 11 samples.

Results

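The genes described here copy the genome or divide it between daughter cells. They are 49 genes chosen by name as known parts of DNA replication and mitosis. All 49 were found among the 27962 gene names of the array and in the authors' gene table, and all 49 passed the filter on dim probes, out of 16695 genes tested. By role, 25 were placed in mitosis, 22 in DNA replication, and Chek1 and Foxm1 in neither, as regulators of both. The question put to the data was how the replication genes compared with the mitosis genes across liver development.

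Normal mouse liver was measured at embryonic days 14 and 18 (called E14.5 and E18.5 here, as the study's results do), at postnatal day 5 (P5) and at postnatal day 56 (P56), on 3, 3, 2 and 3 Agilent 4x44k arrays. Each array carried RNA of one stage in the Cy5 dye and commercial RNA of normal adult mouse liver, a common reference, in the Cy3 dye. The labels give liver as the source and also name a cell type, hepatoblasts at E14.5, immature hepatocytes at E18.5 and hepatocytes after birth, and the methods describe RNA of whole livers as well as of isolated fetal cells. Which of these an embryonic array carried is not settled here. The labels call the arrays biological replicates. They name no treatment and no genetic change, and give neither strain nor sex, while the methods name C57BL/6 mice for the embryos from which cells were isolated by E-cadherin.

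Before a cell divides, the MCM helicase is loaded onto origins in G1 phase by Cdc6 and Cdt1, polymerases copy the DNA in S phase from nucleotides that ribonucleotide reductase and thymidylate synthase help to supply, and in mitosis the spindle, its kinesin motors and the centromere proteins separate the chromosomes while a checkpoint delays anaphase until all of them are attached. Replication genes are known for activation by E2F factors at the entry into S phase. Mitosis genes are known for a later peak under the MuvB complex with B-Myb and Foxm1. The fetal liver is both a growing epithelial organ and the main site of blood formation, with cycling hepatoblasts and cycling blood precursors, while most hepatocytes of an adult liver are at rest.

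All levels below are log2 of Cy5 over Cy3, that is, of the stage over the adult reference, after loess normalization within each array. The background correction added an offset of 50 to both dyes, which draws the ratios of dim spots toward 0. Such a level says how far a gene stood above the adult reference, not how abundant its RNA was beside that of other genes. A difference between stages is a difference of such levels, with its standard error (SE) from limma and a p-value adjusted over all 16695 genes (Benjamini-Hochberg). A gene was called higher or lower at an adjusted p under 0.05. The number of arrays limits the precision. Per array, 15725 to 21632 probes were well above background in Cy5 at P56 and 20612 to 24153 at the other stages. Across probes, Pearson's r between arrays of a stage was 0.986 to 0.989 for E14.5, 0.965 to 0.982 for E18.5, 0.895 for P5 and 0.825 to 0.934 for P56. Arrays were read in 4 scans: E14.5 with replicate 1 of E18.5, the other E18.5 arrays, replicate 2 of P5, and replicate 3 of P5 with the P56 arrays.

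The medians of the mitosis genes and of the replication genes stood far above the adult reference at every stage up to P5 and below it at P56. The median level of the 25 mitosis genes was 3.05, 3.03 and 3.09 on the E14.5 arrays, 2.72, 2.55 and 2.60 on the E18.5 arrays, 2.74 and 1.78 on the P5 arrays, and -0.38, -0.20 and -0.36 on the P56 arrays. The median of the 22 replication genes was 2.60, 2.69 and 2.80 in the E14.5 group, 2.24, 2.21 and 2.11 in the E18.5 group, 2.15 and 1.93 in the P5 group, and -0.51, -0.19 and -0.58 in the P56 group. In both parts the 3 arrays of E18.5 lay below the 3 of E14.5, and the 3 of P56 lay below all other arrays. The medians of all genes tested lay between -0.02 and 0.01 on every array, where loess within arrays sets them near 0. In bulk RNA, fewer cycling cells and less of these RNAs per cycling cell cannot be told apart.

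**Figure D1:**
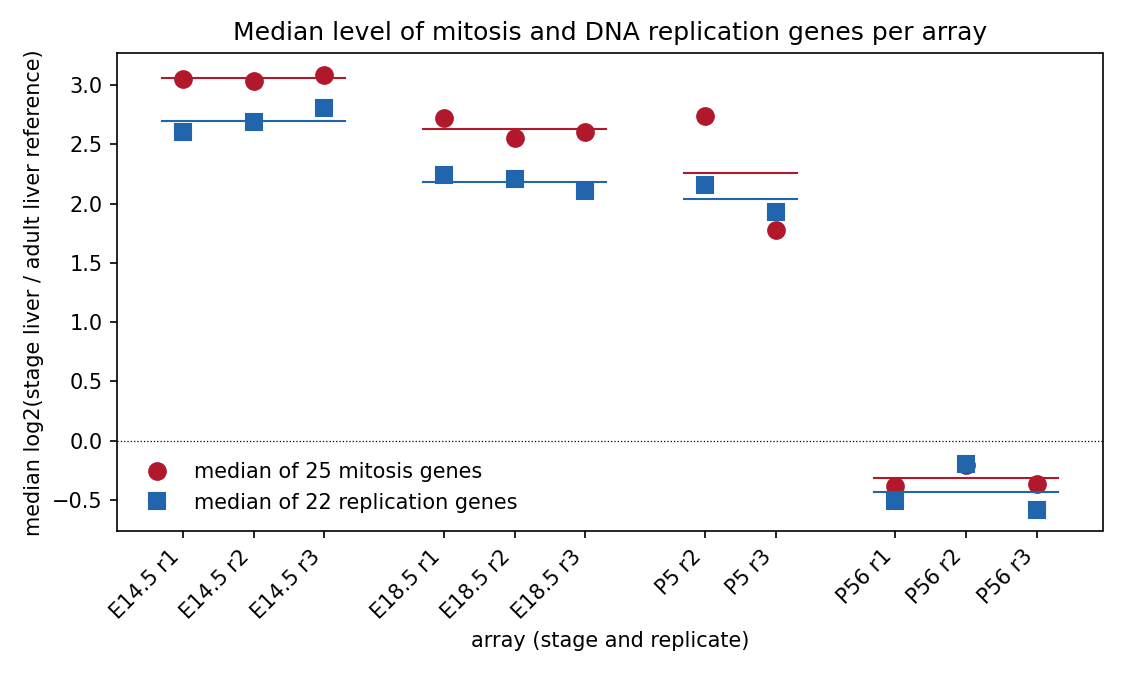
Median log2 ratio of stage liver over adult liver reference for the 25 mitosis genes (red circles) and the 22 DNA replication genes (blue squares) on each of the 11 arrays, with a line at the mean of each stage. Both medians are at 1.78 or above on the 8 arrays up to P5 and below 0 on the 3 arrays of P56, and replicate 3 of P5 has the lowest mitosis median, 1.78, of those 8.

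**Figure D2:**
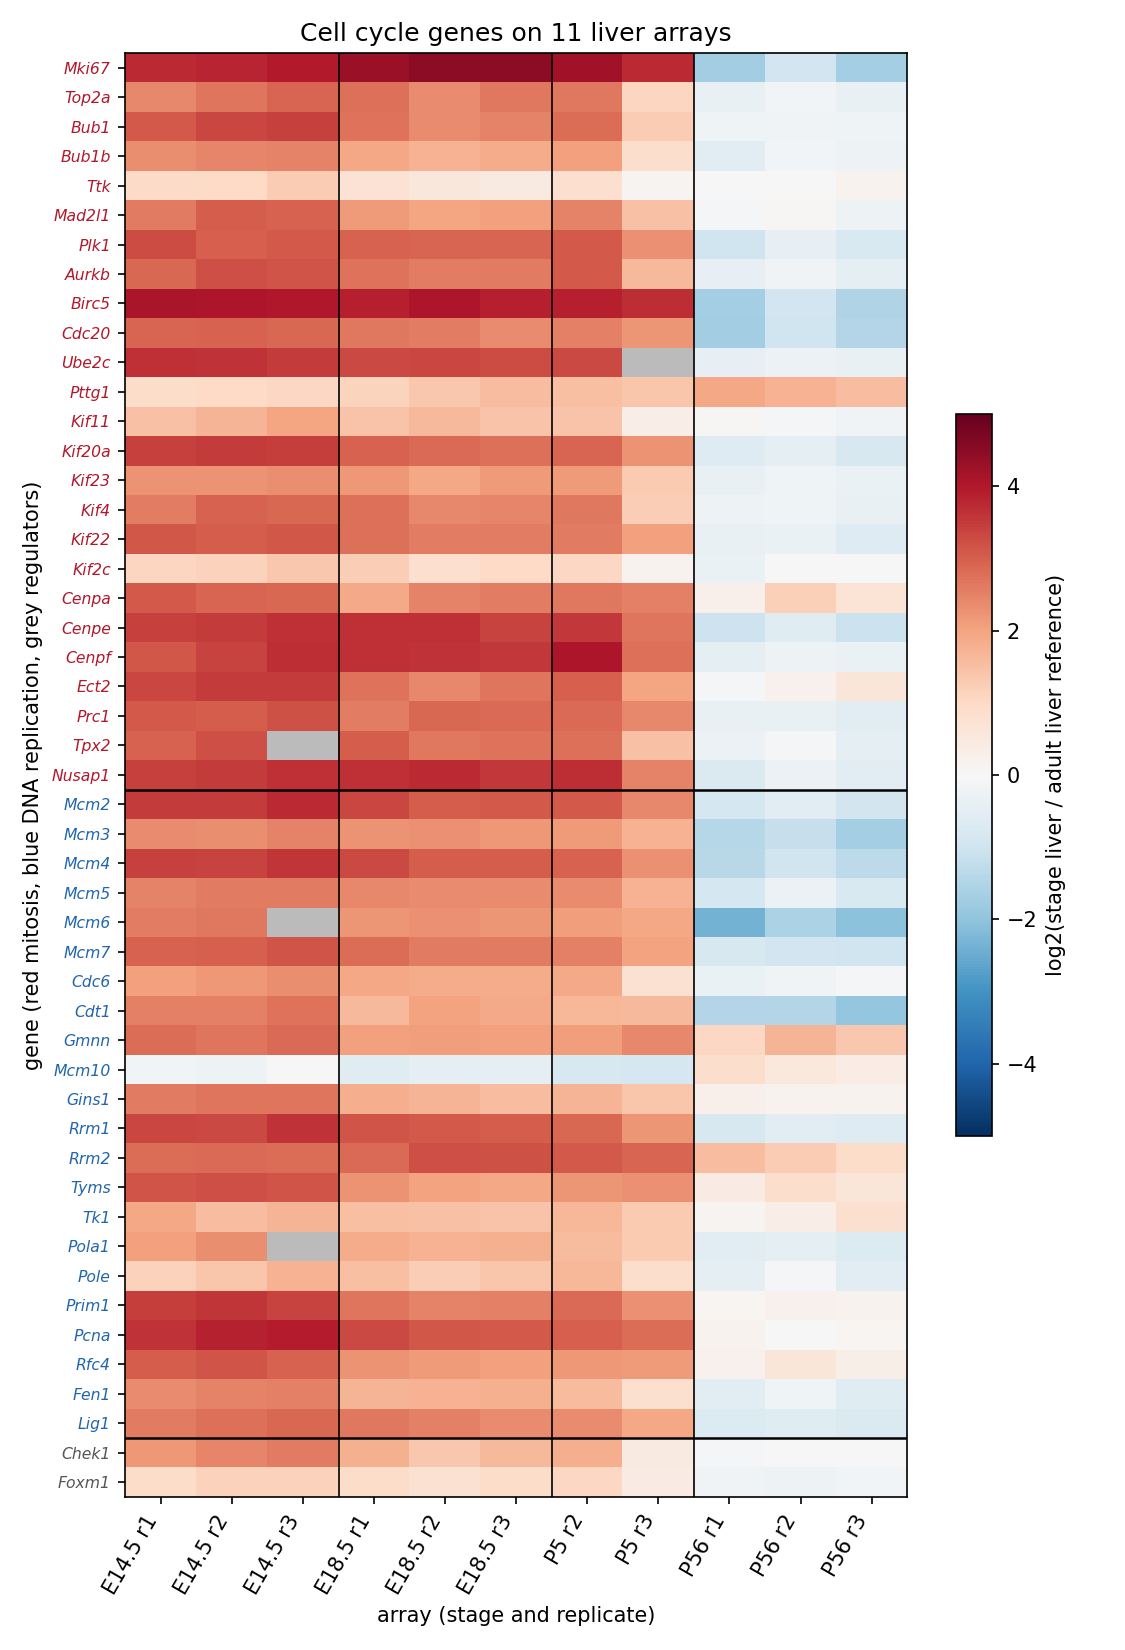
Log2 ratio of stage liver over adult liver reference for each of the 49 genes (rows; red names mitosis, blue DNA replication, grey regulators) on the 11 arrays (columns), with grey cells where the spot was left out as an outlier. Nearly all rows are red up to P5 and pale or blue at P56, and Mcm10 and Pttg1 do not follow this pattern.

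Promoters of 6 of these genes are printed because they carry the motif for which their part, mitosis or replication, is known. RefSeq promoter windows (build GRCm38.p6, 250 bases before to 50 after the gene start) were found for 41 of the 49 genes, 22 of mitosis, 18 of replication and Chek1. The windows were searched on both strands for the cell cycle genes homology region, called CHR (TTTGAA or TTCGAA), an E2F-like core (TTNNCGC) and the CCAAT box (CCAAT). Matches of different motifs shared bases in 4 of the 47 windows of these genes. The CHR letters were in the windows of 17 of 22 mitosis genes and 3 of 18 replication genes, and in those of 21.7% of all 27025 genes with a window. The E2F-like core was in 5 of 22 mitosis genes and 16 of 18 replication genes, against 22.6% of all genes. CCAAT was in 17 of 22 and 11 of 18, against 41.1% of all genes. With only the 250 bases before the start, CHR was in 10 of 22 mitosis and 3 of 18 replication genes (19.6% of all genes), and the E2F-like core in 4 of 22 and 11 of 18 (19.1% of all genes). A match is a description of letters and not a mapped binding site. No window was matched for Tpx2, Aurkb, Kif20a, Gins1, Mcm4, Gmnn, Pole and Foxm1.

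For each part, the last 100 bases before the start are printed for the 3 genes with the largest fall from E14.5 to P56 among those with the motif in that stretch and with no annotated transcript of their own in it. They are Cdc20 (chr4:118437344-118437443, minus strand), Ube2c (chr2:164769829-164769928, plus strand) and Kif11 (chr19:37376282-37376381, plus strand) of mitosis, and Mcm6 (chr1:128359706-128359805, minus strand), Rrm1 (chr7:102441595-102441694, plus strand) and Prim1 (chr10:128015115-128015214, plus strand) of replication. Each is written 5′ to 3′ in the sense of its gene, and capitals mark the CHR letters on either strand in the first 3 and the E2F-like core in the last 3.
Cdc20: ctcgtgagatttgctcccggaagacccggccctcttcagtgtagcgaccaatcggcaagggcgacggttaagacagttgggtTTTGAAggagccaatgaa
Ube2c: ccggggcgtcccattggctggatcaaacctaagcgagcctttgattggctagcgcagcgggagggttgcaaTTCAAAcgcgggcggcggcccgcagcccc
Kif11: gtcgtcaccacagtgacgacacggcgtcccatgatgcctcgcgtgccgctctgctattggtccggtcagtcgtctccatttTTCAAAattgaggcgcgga
Mcm6: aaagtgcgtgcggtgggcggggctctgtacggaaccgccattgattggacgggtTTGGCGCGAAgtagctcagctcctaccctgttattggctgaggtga
Rrm1: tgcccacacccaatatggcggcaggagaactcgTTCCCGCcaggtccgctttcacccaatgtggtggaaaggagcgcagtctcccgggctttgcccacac
Prim1: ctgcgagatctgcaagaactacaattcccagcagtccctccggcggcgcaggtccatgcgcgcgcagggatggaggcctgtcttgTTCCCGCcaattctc
In Cdc20, Ube2c and Kif11 the CHR letters begin 18, 29 and 19 bases before the start, and in Mcm6, Rrm1 and Prim1 the E2F-like core nearest the start begins 43, 67 and 15 bases before it. In Mcm6 the run in capitals holds 2 overlapping matches, 1 on each strand.

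Between E14.5 and E18.5, 21 of the 49 genes fell and 2 rose. Of all genes tested, 22.9% were called lower and 24.5% higher in this comparison, so the members' calls lay mostly on the lower side. Among the replication genes 11 of 22 fell and none rose, with a median difference of -0.37, and among the mitosis genes 9 of 25 fell and 2 rose, with a median of -0.28, beside -0.01 for all genes tested. The difference between the medians of the parts was -0.09 and is a description without a test. These falls were small, 1.22-fold (Ube2c) to 2.15-fold (Tyms), and their number rests on the processing. It was 38 in the Cy5 channel alone and 1 when arrays were also scaled to a common spread. With 1 array left out it was 12 to 18 (12 without replicate 3 of E18.5, 13 without replicate 3 of E14.5). The calls over all genes were not counted in these settings. The medians of both parts were below 0 in all 19 other settings, some of which cannot change them. The 11 genes called lower with any 1 embryonic array left out were Mad2l1, Kif20a, Ect2, Cdt1, Gmnn, Gins1, Tyms, Prim1, Pcna, Rfc4 and Fen1. The other 10 lost the call without at least 1 array. Replicate 1 of E18.5 was read in the same scan as the E14.5 arrays. Against the mean of those arrays it was lower for 18 of 25 mitosis genes (median -0.27) and 20 of 22 replication genes (median -0.31).

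The falls in replication genes lay mainly among the loading and fork factors. Of the 5 genes for origin loading and firing, Gins1, Cdt1, Gmnn and Mcm10 fell. Gins1, a subunit of the GINS complex that activates the helicase, was at 2.61, 2.69 and 2.69 at E14.5 and 1.81, 1.70 and 1.54 at E18.5, without overlap (-0.98 ± 0.11, adjusted p = 1.5e-05). Cdt1, which brings the MCM helicase to origins, was at 2.52, 2.52 and 2.73 and then 1.62, 2.0 and 1.91 (-0.74 ± 0.14, adjusted p = 0.001). Geminin (Gmnn), the inhibitor of Cdt1, also fell, from 2.80, 2.69 and 2.81 to 2.06, 2.11 and 2.06 (-0.69 ± 0.14, adjusted p = 0.002). Cdc6, the ATPase that loads the helicase, did not pass the test (-0.30 ± 0.22, adjusted p = 0.28).

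At the replication fork, 5 of 7 genes fell. Pcna, the sliding clamp of the polymerases, was at 3.61, 3.83 and 3.93 at E14.5 and 3.30, 3.12 and 3.08 at E18.5 (-0.62 ± 0.11, adjusted p = 0.00079). Prim1, the primase that starts each new strand, went from 3.44, 3.57 and 3.38 to 2.67, 2.49 and 2.53 (-0.90 ± 0.13, adjusted p = 0.00011). The arrays of the stages did not overlap for either gene. Rfc4, a subunit of the clamp loader, fell by 0.89, the flap nuclease Fen1 by 0.71 and the polymerase alpha subunit Pola1 by 0.41, while DNA ligase Lig1 (-0.24 ± 0.13, adjusted p = 0.15) and the polymerase epsilon subunit Pole (-0.024 ± 0.21, adjusted p = 0.94) did not pass the test.

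Of Mcm2 to Mcm7, the 6 subunits of the helicase ring, only Mcm7 was called, falling by 0.36 (adjusted p = 0.038), and the other 5 differed by -0.43 to -0.16. The median of the 6, -0.34, was near that of all replication genes. These calls depend on the processing. That of Mcm7 was lost with the scan as a random (adjusted p = 0.064) or fixed block (0.19), while in the Cy5 channel alone Mcm2 to Mcm6 were called lower (-1.09 to -0.49), and Mcm2, Mcm4 and Mcm6 were so with median centring or with only the arrays of both stages. Mcm6 was at 2.57 and 2.63 on the 2 E14.5 arrays with a value and at 2.22, 2.27 and 2.21 at E18.5 (-0.36 ± 0.18, adjusted p = 0.13). Among the 4 genes of nucleotide supply, Tyms, thymidylate synthase, had the largest fall of all 49 genes, from 3.14, 3.22 and 3.16 to 2.26, 2.01 and 1.93 (-1.11 ± 0.12, adjusted p = 1.9e-05). Rrm1 and Rrm2 encode the large and small subunits of ribonucleotide reductase. They differed by -0.33 ± 0.16, adjusted p = 0.11 and 0.29 ± 0.15, adjusted p = 0.13, neither past the threshold, and thymidine kinase Tk1 by -0.26 ± 0.16, adjusted p = 0.21.

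Among the mitosis genes, 3 of the 4 checkpoint genes fell between the embryonic stages, Bub1, Ttk and Mad2l1, and Bub1b did not pass the test (-0.57 ± 0.23, adjusted p = 0.057). Ttk was not well above background in Cy3 on any array. Its call was lost with processed signals (adjusted p = 0.064), the authors' table (0.2), the scan as a fixed block (0.094) and scaling between arrays (0.065). It was also lost without replicate 3 of E14.5 or replicate 2 or 3 of E18.5 (0.067 to 0.099). Mad2l1, which holds back the anaphase-promoting complex, was at 2.61, 3.03 and 2.93 at E14.5 and 2.14, 1.99 and 2.04 at E18.5 (-0.80 ± 0.21, adjusted p = 0.0083). The kinase Bub1 was at 3.05, 3.35 and 3.42 and then 2.71, 2.37 and 2.49 (-0.75 ± 0.28, adjusted p = 0.045), a call that was lost without any 1 of the 6 embryonic arrays (adjusted p = 0.053 to 0.13), with the scan as a random block (0.062), with the replicate block (0.054) and without the filter on dim probes (0.074). Ect2, the exchange factor that starts cytokinesis, had the largest fall of the mitosis genes, from 3.32, 3.50 and 3.51 to 2.72, 2.39 and 2.67 (-0.85 ± 0.23, adjusted p = 0.01). Prc1, a bundler of the spindle midzone, fell by 0.35, the kinesins Kif20a and Kif22 by 0.61 and 0.45, and Ube2c, an E2 enzyme of the anaphase-promoting complex, by 0.28. Cenpa, the histone H3 variant of centromeres, fell by 0.64 (adjusted p = 0.028), but was higher by 0.60 at E18.5 in the authors' gene table. Its second probe, which did not pass the filter, differed by 0.07.

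Plk1, Aurkb and Birc5, the mitotic kinases and the passenger protein survivin, were not called between E14.5 and E18.5. Their differences were -0.17 ± 0.19, adjusted p = 0.5, -0.47 ± 0.27, adjusted p = 0.18 and -0.10 ± 0.16, adjusted p = 0.64. Mki67, which encodes the proliferation marker Ki-67, rose. It was at 3.75, 3.80 and 3.96 at E14.5 and 4.31, 4.48 and 4.48 at E18.5, without overlap (0.59 ± 0.19, adjusted p = 0.024), and its second probe differed by 0.45. The call was lost in the Cy5 channel alone (0.39), with the scan as a fixed block (0.47), with arrays scaled to a common spread (0.73), and without replicate 1 or 2 of E14.5 or replicate 2 or 3 of E18.5 (0.54 to 0.57). Pttg1, securin, rose by less, from 0.92, 1.00 and 1.02 to 1.11, 1.36 and 1.53 (0.35 ± 0.12, adjusted p = 0.035). That call was lost with the scan as a fixed (0.13) or random block (0.30), with the replicate block (adjusted p = 0.06), in the Cy5 channel alone (0.15), with median centring (0.28), processed signals (0.29), scaling between arrays (0.36) or the authors' table (0.45), and with any array but replicate 1 of E18.5 left out (0.26 to 0.37). Top2a, topoisomerase II alpha, was not called (-0.091 ± 0.30, adjusted p = 0.83).

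**Figure D3:**
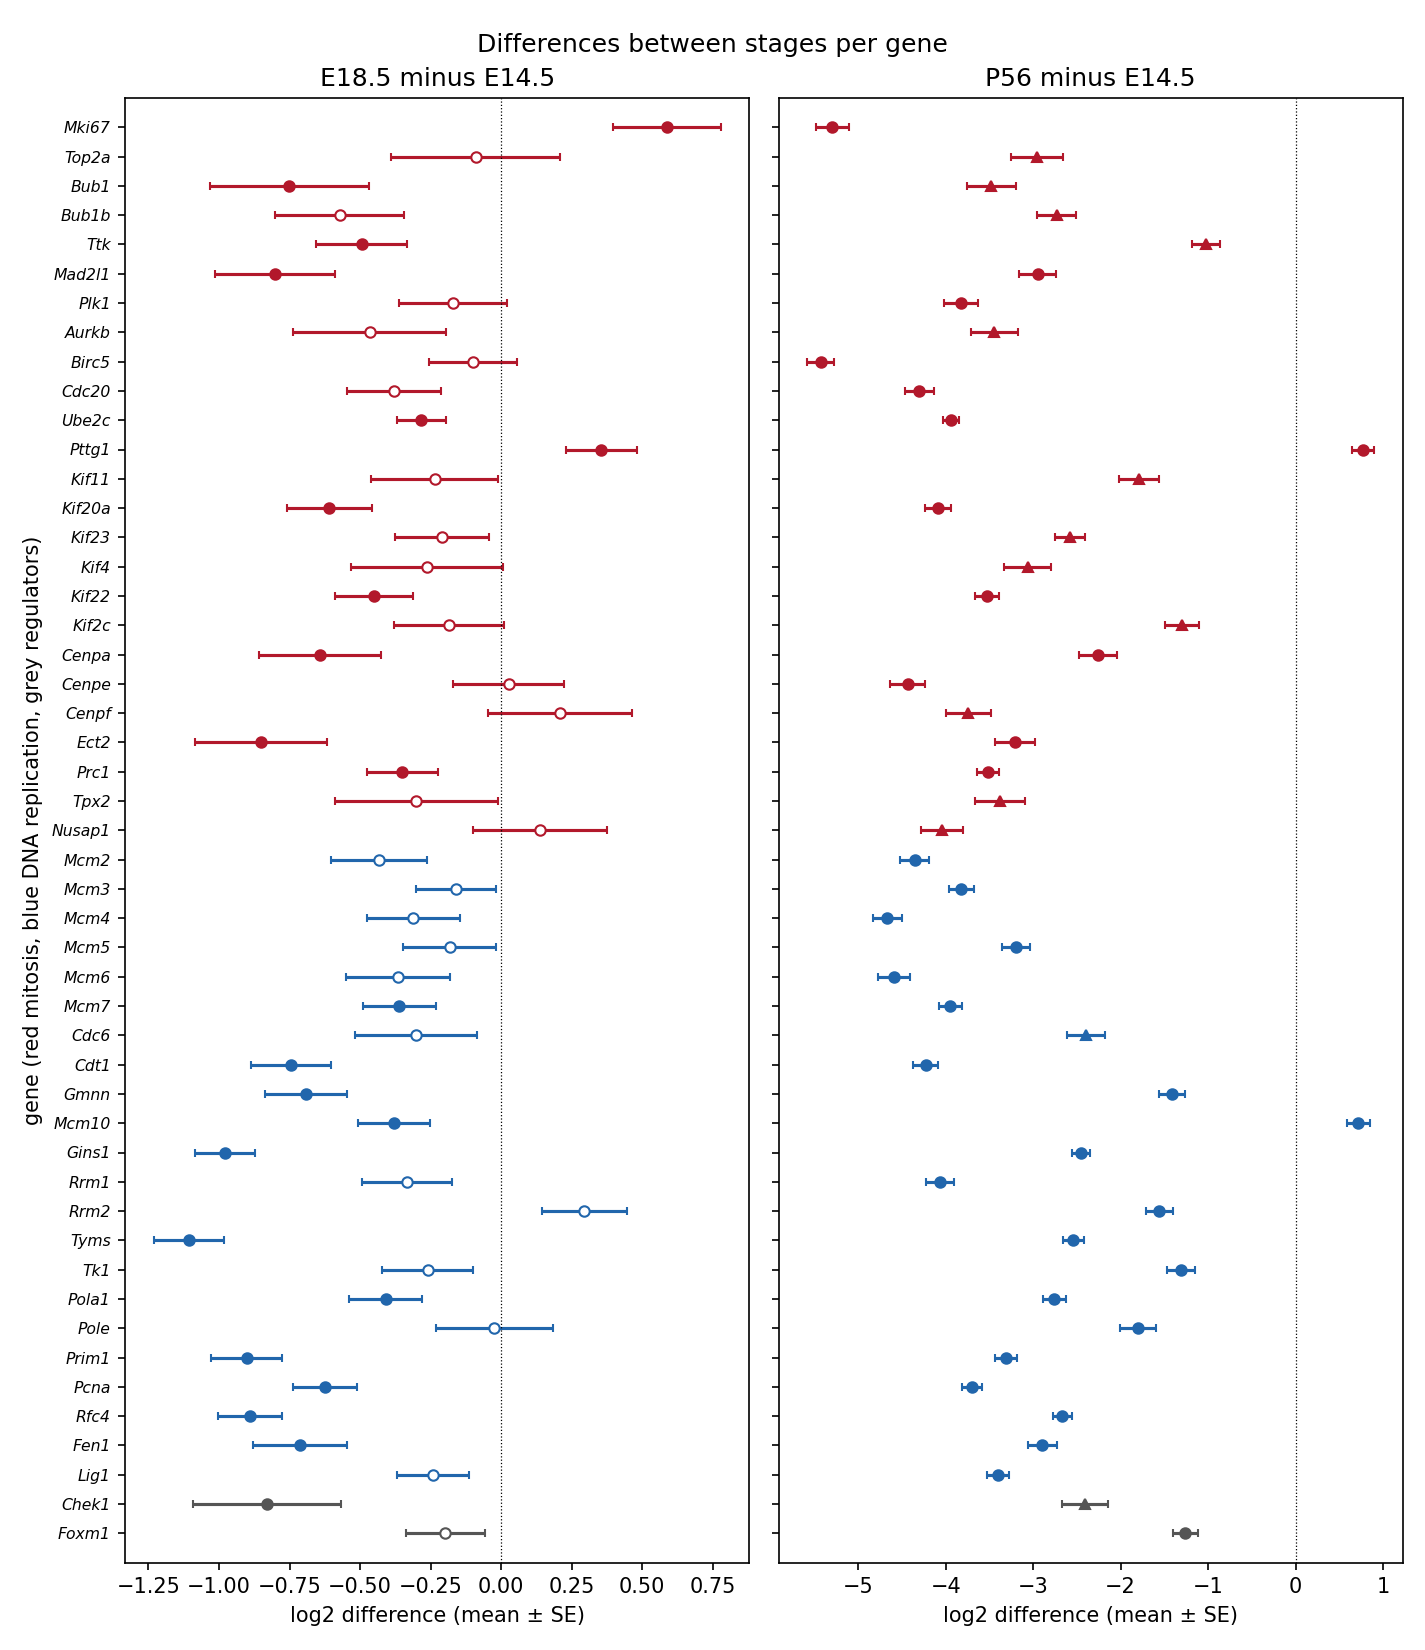
Log2 difference (mean with SE) for each of the 49 genes between E18.5 and E14.5 (left) and between P56 and E14.5 (right), with red for mitosis, blue for DNA replication and grey for regulators. Filled symbols passed an adjusted p under 0.05, open ones did not, and triangles mark genes not well above background in Cy5 on any P56 array, whose fitted ratio is plotted. On the left 21 genes are filled below 0 and 2 above it, and on the right 47 are below 0 and Pttg1 and Mcm10 above it.

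Of the regulators, only Chek1 was called lower between the embryonic stages. Chek1, the checkpoint kinase that guards replication forks, was at 2.18, 2.43 and 2.59 at E14.5, at 1.76, 1.33 and 1.61 by E18.5, at 1.80 and 0.44 on the P5 arrays and at -0.046, 0.022 and -0.015 on the P56 arrays. It fell between the embryonic stages (-0.83 ± 0.26, adjusted p = 0.021), where its arrays did not overlap. The call was lost without replicate 2 or 3 of E14.5 or replicate 2 or 3 of E18.5 (adjusted p = 0.051 to 0.083). Chek1 was not well above background in Cy3 on any array, so its level over the reference rests on a dim spot. Foxm1, a transcription factor of mitosis genes, went from 0.90, 1.14 and 1.13 at E14.5 to 0.92, 0.77 and 0.90 at E18.5. It stood at 1.04 and 0.43 on the P5 arrays and -0.18, -0.26 and -0.15 on the P56 arrays. Its embryonic difference did not pass the test (-0.20 ± 0.14, adjusted p = 0.27). In the Cy5 channel alone Foxm1 was called lower at E18.5 (-0.34, adjusted p = 0.0098 by limma). It was lower at P56 than at each other stage, with 1 of 3 P56 arrays well above background.

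Between E18.5 and P5 no gene of the 49 was called by limma in either direction. Of all genes tested, 6.39% were called lower and 7.31% higher. No scan held both stages, so scan and stage cannot be told apart in this comparison. At an unadjusted p under 0.05, 11 of the 49 were lower (3 of mitosis, 8 of replication) and none higher. Of all 16695 genes tested, 2470 were lower and 2379 higher at that threshold. The methods' test without adjustment gave 2 of the 49 lower, and its calls over all genes were not counted. The median differences were -0.29 for mitosis and -0.28 for replication, and turned to 1.48 and 1.64 when arrays were scaled to a common spread. The lowest adjusted p was that of Rrm1, at 3.14, 3.06 and 3.04 at E18.5 and 2.89 and 2.19 at P5 (-0.54 ± 0.18, adjusted p = 0.065). The largest difference, that of Top2a, had a large error. Its P5 arrays were at 2.65 and 1.09 and its E18.5 arrays at 2.75, 2.36 and 2.63 (-0.72 ± 0.33, adjusted p = 0.18).

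This comparison rests on P5 arrays that differ from each other. Of the 48 genes with a value on both, 46 were lower on replicate 3 than on replicate 2, with a median gap of -0.85 for the 24 mitosis genes and -0.37 for the 22 replication genes, beside -0.005 for all genes tested. Bub1 was at 2.79 on replicate 2 and 1.28 on replicate 3, and Aurkb at 3.05 and 1.60, whereas Birc5 was at 3.88 and 3.69 and Tyms at 2.21 and 2.29. The gap followed brightness: across the 48 genes its Pearson's r with the mean brightness of the probe was 0.75 and Spearman's rho 0.77, as a description over genes that share both arrays. It was -1.03 for the dimmer and -0.37 for the brighter 24 genes. Other genes with a level above 1 at E14.5 showed a median gap of -0.43 where they were as dim as the dimmer members and -0.06 where they were brighter.

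The gap also moved with the background correction. With the processed signals of the scanner software it was -0.03 for mitosis and -0.001 for replication, with no background subtraction -0.27 and -0.13, and with a normexp offset of 10 it was -1.19 and -0.38. The median of 18 erythroid genes moved the same way, 3.31 on replicate 2 and 2.44 on replicate 3, while the median of 13 mature hepatocyte genes was -0.28 and -0.47. The replicates were read in different scans, and the part of scan, background or blood cells in the gap was not tested. Without replicate 2 of P5, the median difference from E18.5 was -0.73 for mitosis and -0.44 for replication. Without replicate 3 of P5 it was 0.07 and -0.08. Each of these values rests on 1 P5 array. The median of all genes tested stayed between -0.005 and 0.003 with any 1 array left out. Loess within each array holds it near 0, so it is no check of the gap.

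**Figure D4:**
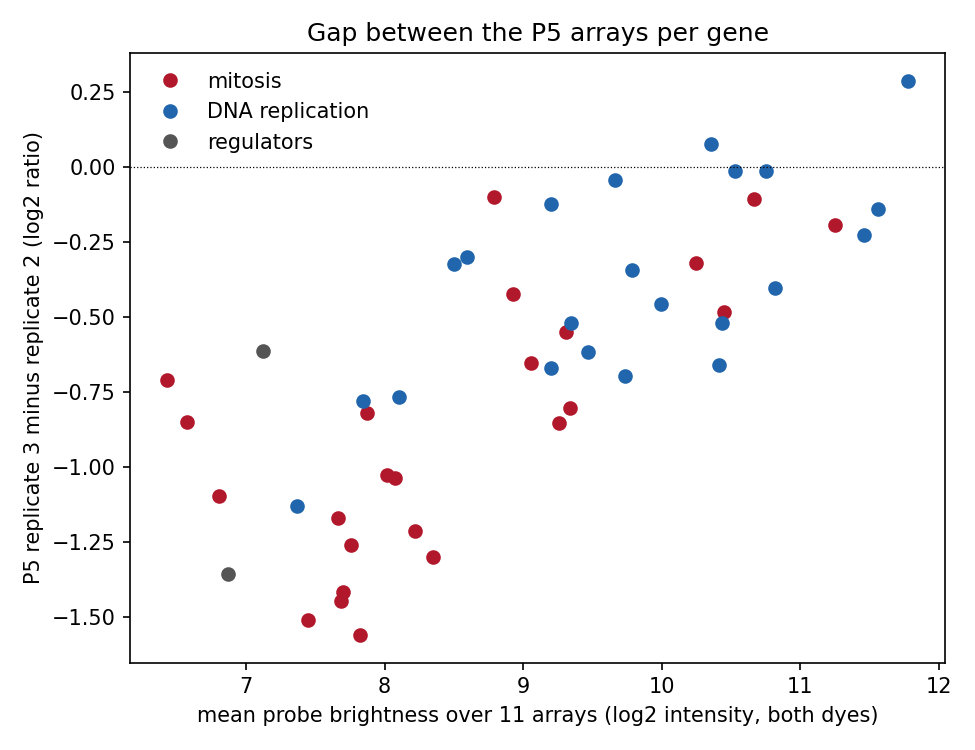
Difference between the P5 arrays (replicate 3 minus replicate 2, log2 ratio) against the mean brightness of the probe over 11 arrays (log2 intensity of both dyes) for the 48 genes with a value on both. Points below 0 are lower on replicate 3, which holds for 46 genes, and the dimmer genes lie lowest.

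At P56, 46 of the 49 genes were lower than at P5 and 1 higher, and 47 were lower and 2 higher than at E18.5 and than at E14.5. Of all genes tested, 24.7% were lower and 21% higher against P5, 33.5% and 31.3% against E18.5, and 34.7% and 36.2% against E14.5. The median difference was -2.40 for mitosis and -2.21 for replication against P5, -2.98 and -2.38 against E18.5, and -3.44 and -3.05 against E14.5, where the medians of all genes tested were -0.02, -0.01 and 0.04. P56 and replicate 3 of P5 were read in the same scan, and there 23 of 24 mitosis genes (median -1.80) and 21 of 22 replication genes (median -2.0) were lower at P56. The comparisons with E14.5 and E18.5 lie between scans, so scan and stage cannot be told apart in them. They share the P56 arrays, so their values are not independent of each other. A probe could pass the filter through any 1 stage. The probes of 12 mitosis genes, Cdc6 and Chek1, undetected in Cy5 at P56, passed through earlier stages. Their calls at P56 thus rest on signals not clearly above background there. A stricter filter asked for detection in Cy5 on every array. It left 28 of the 49 genes, of which 26 were lower at P56 than at each other stage. Calls over all genes were not counted under it.

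Many of the genes were no longer detected in Cy5 at P56. All 49 genes were well above background in Cy5 on every array up to P5. At P56, 10 mitosis genes were so on all 3 arrays, 3 on some and 12 on none, against 18, 3 and 1 replication genes. The replication gene on none was Cdc6. The median Cy5 signal over background of the 49 genes was 1260 to 2440 intensity units on the arrays up to P5 and 23.9 to 46.0 at P56, while in the Cy3 channel of the same P56 arrays it was 190 to 197. These Cy5 values at P56 lie below the offset of 50, so the size of the falls to P56 depends on that offset. With the processed signals, used here without this offset and without loess, the mitosis median against E14.5 was -5.08, beside -3.44 as reported. For the 12 mitosis genes on none, the fall from E14.5 is an approximate bound in the Cy5 channel alone, from about 2.05-fold for Ttk (1.80 without quantile normalization between arrays) to about 19.6-fold for Nusap1. It was about 7.53-fold for Cdc6 and about 4.96-fold for Chek1 (7.20 and 4.60). These values move with the normalization, so they are not strict lower limits. For Top2a, Kif23, Kif4 and Cenpf the gene's own P56 signal was used, so their value is a plain difference. The ratio to the reference, a different scale, fell 2.03-fold for Ttk (adjusted p = 0.00012), 16.5-fold for Nusap1 (2.4e-08), 5.26-fold for Cdc6 (1e-06) and 5.32-fold for Chek1 (5.2e-06), and the p-values belong to these ratios. The channel values are no floor for the ratios.

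Of the measured falls to P56, the largest in mitosis were those of Birc5 and Mki67. Birc5 was at 4.07, 4.03 and 4.00 at E14.5, at 3.89, 4.03 and 3.89 by E18.5, at 3.88 and 3.69 on the P5 arrays and at -1.71, -0.97 and -1.5 on the P56 arrays, a 43.0-fold fall from E14.5 (-5.43 ± 0.16, adjusted p = 1.4e-10). Mki67 was at 4.2 and 3.71 at P5 and -1.73, -0.96 and -1.69 at P56, 39.3-fold below E14.5 (-5.30 ± 0.19, adjusted p = 5.4e-10) and 59.0-fold below E18.5, and its dimmer probe differed by -3.73 from E14.5. Both genes lay below the adult reference at P56 on all 3 arrays. Cdc20, the activator of the anaphase-promoting complex, went from 2.93, 2.93 and 2.86 at E14.5 to -1.74, -0.98 and -1.47 at P56 (-4.30 ± 0.17, adjusted p = 9.5e-10).

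The kinesin with the largest fall, Kif20a, went from 3.42, 3.49 and 3.47 to -0.64, -0.45 and -0.79 (-4.09 ± 0.15, adjusted p = 6.1e-10), and Kif22, a kinesin of chromosome arms, from 3.09, 3.04 and 3.09 to -0.38, -0.35 and -0.65 (-3.53 ± 0.14, adjusted p = 9.7e-10). Cenpe, the centromere motor, fell from 3.41, 3.50 and 3.67 to -1.02, -0.62 and -1.08 (-4.43 ± 0.20, adjusted p = 2.5e-09), with 1 of its 3 P56 arrays well above background. Its other probes past the filter, both dimmer, differed by -1.69 and -1.24. Prc1, with 2 of 3, was at 3.07, 3.03 and 3.18 and -0.38, -0.37 and -0.52 (-3.52 ± 0.13, adjusted p = 5.2e-10). Nusap1, a microtubule-binding spindle protein, was at 3.40, 3.50 and 3.64 and -0.74, -0.28 and -0.57, and its second, dimmer probe differed by -0.44, so the size of the difference depends on the probe. Bub1, detected on no P56 array, was at -0.22, -0.16 and -0.23, which is 11.2-fold below E14.5 as a ratio (adjusted p = 3.8e-07), with an approximate bound in the Cy5 channel of 11.4-fold, or 10.9-fold without quantile normalization.

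The 6 subunits of the helicase all fell to P56, with a median difference of -4.15 from E14.5. Mcm4 was at 3.40, 3.37 and 3.56 at E14.5, at 3.31, 3.05 and 3.04 by E18.5, at 2.95 and 2.30 on the P5 arrays and at -1.39, -0.98 and -1.31 on the P56 arrays (-4.67 ± 0.17, adjusted p = 4.9e-10). Mcm6 reached -2.36, -1.56 and -2.05 at P56 (-4.59 ± 0.18, adjusted p = 3.4e-09). Mcm2, well above background on 2 of 3 P56 arrays, differed by -4.36. Between P5 and P56 alone the 6 subunits fell by 2.67 to 4.00.

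Other replication genes ended on either side of the reference. Cdt1 was at -1.48, -1.48 and -1.94 at P56 (-4.23 ± 0.14, adjusted p = 3.4e-10). Pcna was at 3.00 and 2.78 at P5 and 0.19, -0.025 and 0.11 at P56, a 13-fold fall from E14.5 (-3.70 ± 0.11, adjusted p = 2.2e-10). Rrm1 went from 3.33, 3.30 and 3.61 to -0.81, -0.53 and -0.63 (-4.07 ± 0.16, adjusted p = 9.7e-10), while its partner Rrm2 stayed above the reference, at 1.54, 1.27 and 0.91 (-1.56 ± 0.15, adjusted p = 1.9e-06). Tyms was at 0.43, 0.88 and 0.60 (-2.54 ± 0.12, adjusted p = 5.3e-09) and Gmnn at 1.04, 1.69 and 1.33 (-1.41 ± 0.14, adjusted p = 3e-06). These 3, with Gins1, Tk1, Prim1, Rfc4 and Mcm10, were the replication genes above the reference on all 3 P56 arrays. Cenpa was the mitosis gene that fell yet stayed above the reference on all 3 P56 arrays, at 0.25, 1.18 and 0.67.

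Mcm10 and Pttg1 ran against the rest. Mcm10, which binds the helicase and helps polymerase alpha to start, was at -0.12, -0.27 and -0.0015 at E14.5, at -0.60, -0.46 and -0.47 by E18.5, at -0.82 and -0.83 on the P5 arrays and at 0.87, 0.52 and 0.37 on the P56 arrays. It was higher at P56 than at P5 (1.41 ± 0.14, adjusted p = 1.1e-05), and than at E18.5 and E14.5 by 1.1 and 0.72, and was the one gene of the 49 below the reference at E14.5. Pttg1, whose embryonic levels are given above, was at 1.5 and 1.40 on the P5 arrays and 1.94, 1.75 and 1.56 on the P56 arrays. It was higher at P56 than at E14.5 (0.77 ± 0.12, adjusted p = 0.00015), with no call against P5 (0.30 ± 0.14, adjusted p = 0.097). Both rest on a single probe. With arrays centred on their median in place of loess, which moved the median of all genes at P56 against E14.5 from 0.04 to -0.33, Mcm10 differed by 0.007 and Pttg1 by 0.02 from E14.5, and by 0.46 and -0.26 from E18.5, none of them called in the reported direction. Ttk, the checkpoint kinase Mps1, was the other gene not called against P5 (-0.43 ± 0.18, adjusted p = 0.07).

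Whether replication genes fell less than mitosis genes depended on the processing. The replication median fell less by 0.19 against P5, 0.60 against E18.5 and 0.40 against E14.5. Setting the genes undetected at P56 at their bounds gave 0.70 and 0.45 for the last 2 values. Those medians mix Cy5 channel bounds with ratios, so they do not bound the difference in ratios. Over the 10 mitosis and 18 replication genes detected on all P56 arrays the values were 0.57 and 0.43. Detection follows the P56 level itself and left out more mitosis than replication genes, so this subset cannot decide the question. The reported value against E14.5, 0.40, stayed above 0 in 16 of 17 other settings. These ran from 0.10 in the Cy5 channel alone to 1.40 with processed signals, and median centring gave -0.21. The settings are not independent checks. The value was 0.40 again with quantile normalization between arrays, which leaves the ratios as they are. It was also 0.40 without the filter on dim probes, with the replicate block and with only the arrays of both stages. Against P5 the difference was below 0 in 4 of 19 settings, and -0.20 without replicate 2 of P5. As levels, the replication median minus the mitosis median was -0.50 to -0.28 on the 6 embryonic arrays, -0.59 on replicate 2 of P5, 0.15 on replicate 3, and -0.13, 0.0084 and -0.22 on the P56 arrays. No test was made of the difference between the parts.

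**Figure D5:**
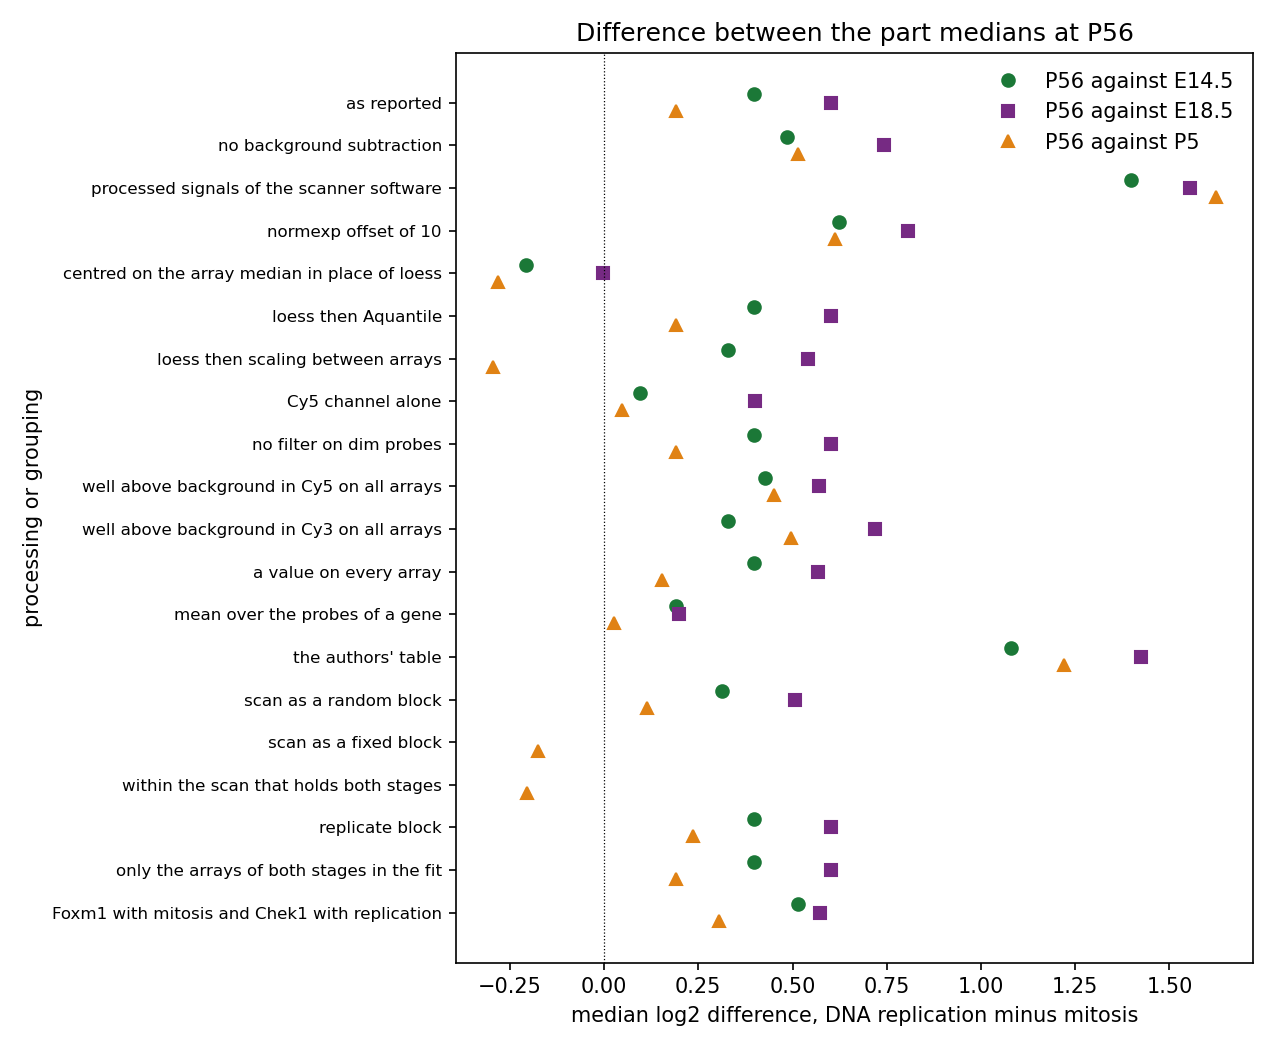
Difference between the median of the 22 DNA replication genes and that of the 25 mitosis genes (log2, horizontal axis) in 3 comparisons of P56, as reported and under each other processing or grouping (vertical axis). Values right of 0 mean a smaller fall of replication genes. Most points lie right of 0, those with median centring do not, nor do the values against P5 with scaling between arrays, with the scan as a fixed block or within the scan, and the processed signals give the largest values, 1.40 to 1.62.

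Other genes of the same processes, taken from a list of textbook names, were counted the same way. Of 35 further replication genes measured, 25 fell from E14.5 to E18.5 and none rose, with a median of -0.59. The 25 are 71.4% of the list, beside 22.9% of all genes called lower and 24.5% called higher. The largest falls were those of Rpa3, a subunit of the single-strand binding protein (-1.47 ± 0.19, adjusted p = 6.2e-05), Tipin, a fork protection factor (-1.31 ± 0.095, adjusted p = 1.1e-06), and the clamp loader subunit Rfc5 (-1.1 ± 0.11, adjusted p = 8.2e-06). Of 36 further mitosis genes 12 were lower, with Cenpk, Melk and Kif18a at the lower end (-0.93 ± 0.25, adjusted p = 0.0094, -0.89 ± 0.19, adjusted p = 0.0025 and -0.85 ± 0.26, adjusted p = 0.019), and Cdca2 was higher (2.28 ± 0.13, adjusted p = 6.4e-08), with a median of -0.33. The 12 are 33.3% of this list, a share nearer to the 22.9% of all genes.

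At P5 against E18.5, 4 of the 35 replication genes were lower, among them Cdc7, the kinase that fires origins (-0.79 ± 0.20, adjusted p = 0.025), while none of the 36 mitosis genes was called. The 4 are 11.4% of their list, beside 6.39% of all genes called lower and 7.31% called higher. At P56 against E14.5, 33 of 35 and 34 of 36 were lower, with medians of -1.87 and -2.15, beside 34.7% of all genes called lower and 36.2% called higher. Uhrf1, which helps maintain DNA methylation, fell by 4.83 and Tipin fell by 3.77, while the spindle pole kinase Aurka fell by 3.86 and Incenp, the scaffold of the passenger complex, fell by 3.91. Higher at P56 were Orc4l, a subunit of the origin recognition complex, by 0.30, and Mad2l2 and Cdca2 by 0.60 and 2.24.

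Markers of blood and liver cells changed over the same stages, and their part in the results above was not tested. Of 18 erythroid genes, 2 fell and 3 rose from E14.5 to E18.5, and all 18 were lower at P56 than at each other stage, from Gata1 (-1.62 against E14.5) to Rhd (-4.60). Their median level lay between 3.21 and 3.27 on the E14.5 arrays, between 3.18 and 3.45 on the E18.5 arrays and between -0.03 and -0.01 on the P56 arrays. It was thus above 3 on all 6 embryonic arrays, for which the labels name hepatoblasts and immature hepatocytes. Of 14 lymphoid and myeloid genes 13 rose from E14.5 to E18.5, led by S100a9 (4.46), and 13 fell from E18.5 to P56. All 10 macrophage genes and 6 of 9 endothelial genes rose from E14.5 to E18.5.

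Of 13 mature hepatocyte genes, 12 rose from E14.5 to E18.5, with Cps1 at the upper end (5.02), and 13 of 13 were higher at P56 than at the first stage. Their median lay between -3.86 and -3.60 on the E14.5 arrays and between -1.0 and -0.45 on the E18.5 arrays. Of 7 hepatoblast genes, which include Afp and Dlk1, 6 were lower at P56 than at E14.5, and Afp fell by 5.67. The hepatoblast median lay between 3.62 and 3.76 on the E14.5 arrays and between 4.26 and 4.64 on the E18.5 arrays. Of 4 megakaryocyte genes 1 fell from E14.5 to E18.5 and 4 to P56, with none higher. Of 9 stellate cell and fibroblast genes 2 fell and 3 rose to E18.5, and 7 were lower and 2 higher at P56. Of 6 biliary genes 0 fell and 4 rose to E18.5, and 1 was lower and 2 higher at P56. The shares of all genes lower and higher were 22.9% and 24.5% at E18.5 and 34.7% and 36.2% at P56, each against E14.5.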

How the data were processed

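Livers of 4 stages were measured on 11 two-colour Agilent arrays with no dye swap. The authors deposited Feature Extraction 9.5.1.1 output, whose mean spot and median background intensity values in both dyes were used here, and a table of log2 ratios per gene, lowess-normalized and averaged over probes per the file header, which served only as an alternative. The labels, not the values, gave each array its stage.

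In R 4.3.3 with limma 3.58.1, background was corrected by normexp (offset 50) and ratios were normalized by loess within arrays, with control spots at weight 0 and outlier spots left out. Spots of a probe were averaged. A probe passed if every array of 1 stage or more read it as well above background in Cy5 and no stage lacked more than 1 value. Genes with several such probes were represented by the brightest. All 16695 genes were fitted over 11 arrays (lmFit, eBayes), with Benjamini-Hochberg adjustment at 0.05 in each of 5 comparisons. Ube2c lacked replicate 3 of P5, and Tpx2, Mcm6 and Pola1 lacked replicate 3 of E14.5, which the fit left out. For genes undetected at P56, approximate bounds compare the Cy5 mean of the brighter stage with a P56 floor or the gene's own signal, whichever was higher. The floor was the dimmest probe read as well above background on each array, and the bounds are open to dye bias. The script was tested on simulated data. Members, lists and the rule for named genes (by role, brightness and size of change) were chosen with earlier results of these data known. Alternatives covered background, normalization, filters, probe choice, scan, replicate block, arrays left out and the methods' t-test. Promoters came from RefSeq (GRCm38.p6). Values of 1 gene of the further replication list are not reported here.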

Additional observations from a re-analysis of the deposited data

How the results depend on the processing

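Counts of members called lower kept their size in most settings, and the difference between the parts was less stable. For E18.5 against E14.5 (21 called lower), the count was 11 with a normexp offset of 10, 11 in the authors' table, 1 after scaling between arrays, 38 in the Cy5 channel alone and 1 when an absolute log2 change of 1 or more was also required. For P5 against E18.5 (0), it was 1 in the Cy5 channel alone and 2 by the methods' t-test before adjustment. At P56 the strict Cy5 filter, which left 28 members, gave 26 lower against P5, 26 against E18.5 and 26 against E14.5. The methods' t-test with adjustment gave 10 against P5, where it called 195 of all 16695 genes lower, beside 4118 by limma. For the other settings of this paragraph the calls over all genes were not counted.

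The replication median minus the mitosis median for P56 against P5 (0.19) was 0.52 without background subtraction, 1.62 with processed signals, 0.61 with an offset of 10, -0.28 with median centring, -0.30 after scaling, 0.45 under the strict Cy5 filter, 0.50 under the Cy3 filter, 1.22 in the authors' table, -0.18 with the scan as a fixed block and -0.20 within the scan. Against E18.5 (0.60) it was 1.56 with processed signals, -0.0033 with median centring, 0.20 with the mean over probes and 1.43 in the authors' table. Against E14.5 (0.40) it was 1.40 with processed signals, 0.62 with an offset of 10, -0.21 with median centring, 0.095 in the Cy5 channel alone and 1.08 in the authors' table. The cause was not tested.

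With 1 array left out, the count of members lower was 12 to 18 for E18.5 against E14.5, 0 to 27 for P5 against E18.5, 42 to 47 for P56 against P5, 46 to 47 against E18.5 and 47 to 47 against E14.5. The difference between the parts ranged from -0.14 to -0.03, from -0.15 to 0.29, from -0.20 to 0.62, from 0.56 to 0.65 and from 0.33 to 0.44 in that order. The 27 came without replicate 2 of P5, as did -0.20.

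Of single called members, 2 values changed sign: Pttg1 for P56 against E18.5 (-0.26 with median centring) and Cenpa for E18.5 against E14.5 (0.60 in the authors' table). Another 185 values lost the call and 3138 kept it. With arrays left out, 56 lost it and 904 kept it. Deviations of same-numbered arrays from their stage means had an r of -0.305 to 0.085. With so few arrays per stage this cannot show whether the numbers pair samples, and the reported fit used no pairing. With the replicate block, 19 members fell from E14.5 to E18.5, beside 3584 of all 16695 genes. The spots of the dim members limit their values at P56, where 28 to 35 of the 49 members per array were well above background.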
